A study of Mus musculus with 17 samples.

Results

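The 40 genes described here encode the proteins that build, cut, bundle and pull actin filaments, together with the small GTPases and kinases that steer them when a cell moves. They were chosen by name from the known parts of this machinery, by a rule that uses no measured value but was written with earlier results of these data known. All 40 were rows of the count tables, which hold 20572 genes; Diap1 and Diap3 are the older symbols of Diaph1 and Diaph3, and the other 38 matched RefSeq by symbol. The members are 5 small GTPases (Rac1, Cdc42, Rhoa, Rhob and Rhoc), 8 subunits of the Arp2/3 complex with the activators Wasl and Wasf2, the Rock and LIM kinases, 2 formins, the Ena/VASP proteins, 4 tropomyosins, myosin II chains, the ezrin, radixin and moesin linkers and single proteins such as cofilin, fascin, cortactin, caldesmon, Capg and Akap12.

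The study asked which transcripts are direct targets of Msi2 (Musashi-2) in mouse keratinocytes, a protein that binds mRNAs mostly in their 3' UTRs, and how Msi2 bears on epithelial cell migration. The cells were keratinocytes from newborn C57BL/6 skin, carried for 3 passages on growth-arrested NIH-3T3 J2 fibroblasts until an immortal population arose, and then kept on uncoated dishes. All RNA and footprint groups carried a lentivirus and passed 2 days of puromycin at 2 ug/ml: control cells had a scrambled short hairpin RNA and knockdown cells one against Msi2. There were 3 RNA libraries of each kind of cell, 3 of each for ribosome footprints (the pieces of mRNA that ribosomes cover, taken after cycloheximide), and 5 of HITS-CLIP, which maps the RNA sites that Msi2 touches. In CLIP, cells without a named hairpin were irradiated with 200 mJ/cm2 of UVC, and the RNA held by Msi2 was trimmed with RNase that was undiluted in library 1, diluted 1 in 20 in libraries 2 (low molecular weight) and 3 (high molecular weight), 1 in 50 in library 4 and 1 in 75 in library 5. The labels do not tell Msi2 hairpins apart, describe 1 immortalized population and name no separate cultures for libraries of the same group. The p-values here therefore rest on a spread among libraries that may be technical.

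A crawling cell pushes its front with branched actin and pulls its rear with contractile bundles. Rac1 and Cdc42 act on the WAVE and WASP activators, which switch on the Arp2/3 complex to branch filaments at the front. RhoA acts on formins, which lengthen straight filaments, and on the Rock kinases, which raise myosin II activity and, through the LIM kinases, restrain the filament-cutting protein cofilin. In epidermis the same machinery holds keratinocytes to each other and drives their migration over a wound.

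Msi2 itself was examined first. Its footprints stood at 17.1, 16.8 and 18.3 CPM in control and 4.53, 0 and 5.12 CPM in knockdown (CPM, library-scaled counts with TMM factors). The 0 was in the shallowest library, where 3 counts, the limit that a count of 0 allows, equal 5.86 CPM before TMM scaling. The log2 fold change was -2.08 ± 0.41 (± SE; quasi-likelihood test of edgeR, Benjamini-Hochberg adjusted p = 0.000285). Msi2 RNA was at 7.32 ± 1.30 CPM in control and 6.02 ± 0.796 CPM in knockdown (mean ± SD, n = 3), and its adjusted p in edgeR was 0.283. RNA libraries held 9221566 to 26785876 gene counts and footprint libraries 512256 to 2959625. The 6 keratinocyte markers summed to 14227 to 17660 CPM of RNA in control and 11531 to 13015 CPM in knockdown. In RNA 2 of the 6 rose (Itgb4 0.57 ± 0.13 and Itga6 0.55 ± 0.15 on the log2 scale) and 2 fell, among them Krt5 (-0.62 ± 0.15). Of 10 fibroblast markers 6 were at 0 in every RNA library, Col1a2, Col3a1 and Pdgfrb among them, and the 10 summed to 15.3 to 17.9 CPM in control and 18.7 to 21.9 CPM in knockdown. Of the 3 tested, Pdgfra rose in RNA, at group means of 0.81 CPM in control and 1.88 CPM in knockdown (1.18 ± 0.41, edgeR's adjusted p = 0.0258), and the others were not called. The 8 muscle markers summed to 114 to 121 CPM in control and 145 to 150 CPM in knockdown, mostly from Smtn, with Myh1 at 0 and group means of Des and Cnn1 below 0.1 CPM. The 2 tested, Smtn (0.30 ± 0.10) and Acta2 (0.95 ± 0.25), both rose in RNA (edgeR's adjusted p = 0.0266 and 0.00563). In footprints Acta2 rose as well (0.95 ± 0.30, edgeR's adjusted p = 0.0254), and Smtn was not called (0.0949). Acta2 RNA was low, at group means of 3.37 CPM in control and 6.75 CPM in knockdown. Reads that aligned to several places made up 15.2 ± 2.01% of control and 21.8 ± 2.45% of knockdown RNA libraries. The part of these shifts in the results was not tested. In bulk samples, fewer cells of a type and less RNA per cell cannot be told apart.

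Members were called in both directions in RNA and, with 1 exception, upward in footprints. Of 39 members tested, 8 rose and 6 fell in RNA at an adjusted p under 0.05, which is 35.9% against 43.8% of all genes tested; 22% of all genes rose and 21.7% fell. In footprints 9 rose and 1 fell, 25.6% against 16.1% of all genes; by direction, 23.1% of members rose against 8.76% of all genes, and 2.56% fell against 7.38%. The falls in RNA numbered 10 without RNA control replicate 3, and the rises in footprints numbered 5 without footprint control replicate 1. The median log2 fold change was 0.0055 in RNA and 0.0505 in footprints, beside 0.004 and -0.0111 over all genes tested. Groups without overlap were counted too: 7 members were higher and 9 lower in every knockdown RNA library (41.0% against 52.9% of all genes, of which 26.8% were higher and 26.2% lower). In footprints 10 were higher and 8 lower (46.2% against 31.4%, of which 15.9% were higher and 15.4% lower). Myl9, a regulatory light chain of myosin II, was not tested: it had 0, 2 and 1 RNA counts in the control libraries and 0, 0 and 1 in the knockdown libraries.

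Myh9, Myh10, Diap1, Fscn1, Rock2 and Akap12 rose in both assays, and Capg fell in both. These 7 are 17.9% of the 39 members; 12.8% of the genes tested in both assays were called the same way in both. Wasf2 and Diap3 rose, and Rac1, Rhoa, Arpc3, Actr3 and Limk2 fell, with a call in RNA alone. Actr2, Cfl1 and Tpm1 rose with a call in footprints alone. The other 22 members passed neither test, and no member was called in opposite directions. Across the 39 members the RNA and footprint fold changes had a Pearson correlation of 0.89, or 0.77 without Akap12 and Capg, and of 0.74 across the 8918 genes tested in both. These points are genes that share the same libraries, so the values are descriptions.

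**Figure D1:**
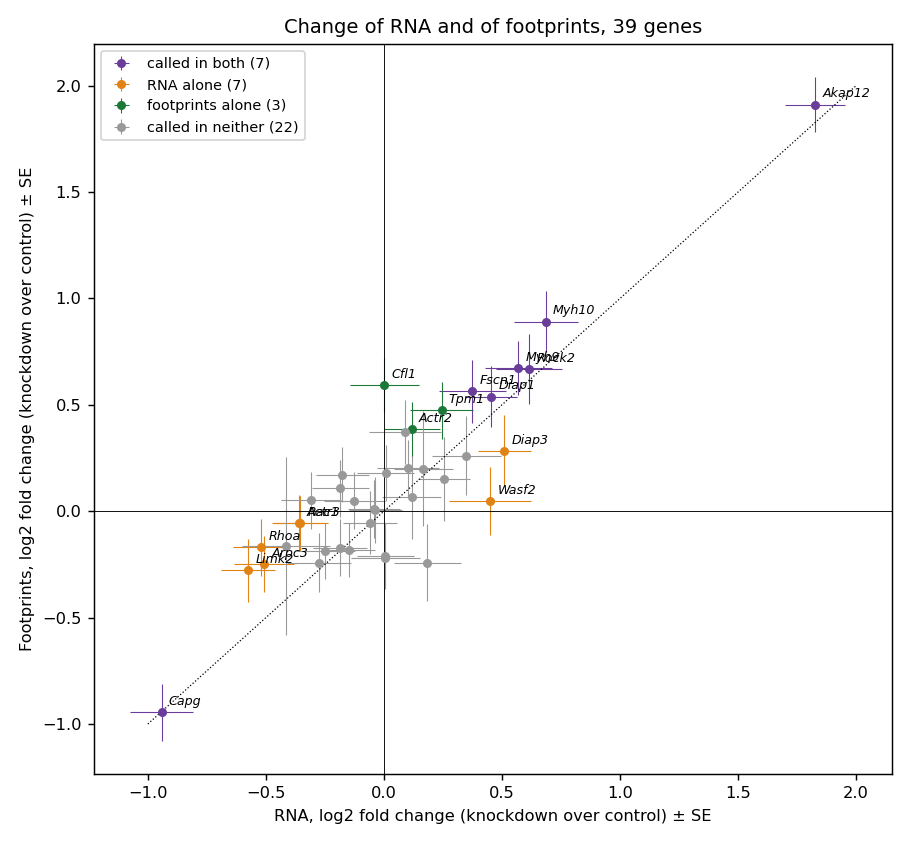
Log2 fold change (knockdown over control, ± SE) of RNA on the x axis and of footprints on the y axis for the 39 members tested, coloured by the assay in which they were called, with the line of equal change dotted. Akap12 lies far up the line of equal change and Capg far down it, while Cfl1 lies above it with an RNA change near 0.

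The GTPase genes were lower or not called. Rac1 (chr5:143505481-143528031 in GRCm38.p6, the build of all gene positions here), the switch for lamellipodia, had RNA at 198, 219.9 and 172 CPM in the control libraries and 157, 146 and 159 CPM in the knockdown libraries. Every knockdown library lay below every control library, and the log2 fold change was -0.35 ± 0.12 (edgeR's adjusted p = 0.0212). That call was lost when any library but control 3 was left out, with an adjusted p of 0.0577 without control 1, 0.0606 without control 2, and 0.0623, 0.0824 and 0.0582 without knockdown 1, 2 and 3, and with a replicate block (0.0699). Rac1 footprints overlapped between groups, at 398 ± 35.02 CPM in control and 380.1 ± 14.7 CPM in knockdown.

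Rhoa (chr9:108306160-108337943), the switch for stress fibres and contraction, had RNA at 207, 197 and 169 CPM in the control libraries and 137, 119 and 145 CPM in the knockdown libraries. The groups did not overlap, and RNA fell by 0.52 on the log2 scale (SE 0.12; edgeR's adjusted p = 0.00215), a call kept under every alternative tried. Rhoa footprints were also lower in every knockdown library, at 214, 196 and 219 CPM in control and 193, 179 and 182 CPM in knockdown, but the log2 fold change of -0.17 ± 0.14 did not pass (edgeR's adjusted p = 0.439).

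The close relatives Rhob and Rhoc, and Cdc42, the GTPase of filopodia and polarity, passed no test in the main fits. Rhob RNA was at 41.8, 37.9 and 31.8 CPM in control and 50.4, 37.5 and 54.2 CPM in knockdown, with control and knockdown libraries overlapping. Its log2 fold change was 0.35 ± 0.14 (edgeR's adjusted p = 0.0593), and a rise of Rhob RNA was called in 6 of 15 alternatives. As a share of the summed CPM of Rhoa, Rhob and Rhoc, which is not corrected for length, Rhob RNA was 15.6 ± 0.525% in control and 25.1 ± 1.82% in knockdown and Rhoa RNA was 80.5 ± 0.366% in control and 71.2 ± 1.56% in knockdown. Both shares separated the groups completely, which in an exact two-sided permutation test of 3 against 3 libraries gives the smallest p possible, 0.1. Over the 30 shares compared here the smallest adjusted p was 0.273, so none passed. Cdc42 RNA was at 199, 209.7 and 186 CPM in control and 189, 160.3 and 177 CPM in knockdown. Its footprints were at 316, 344 and 299 CPM in control and 376, 331 and 372 CPM in knockdown (0.17 ± 0.13 on the log2 scale, edgeR's adjusted p = 0.414).

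Of the Rock kinases, which phosphorylate myosin light chains and LIM kinases, Rock2 rose. Rock2 (chr12:16894978-16988274) RNA was at 72.7, 57.6 and 88.6 CPM in the control libraries and 116, 119.9 and 98.5 CPM in the knockdown libraries. Its footprints were at 68.5, 77.2 and 93.1 CPM in the control libraries and 124, 94.3 and 142 CPM in the knockdown libraries. In both assays all knockdown libraries were above all control libraries. The log2 fold changes were 0.61 ± 0.14 in RNA and 0.67 ± 0.16 in footprints (edgeR's adjusted p = 0.00199 and 0.00352). The footprint call was lost without knockdown 3 (adjusted p = 0.0757). Rock1 RNA was also without overlap, at 60.9, 56.4 and 66.97 CPM in control and 76.1, 69.9 and 73.4 CPM in knockdown, but its log2 fold change of 0.25 ± 0.11 was not called (edgeR's adjusted p = 0.0701), and its footprints overlapped. In 4 of 15 alternatives Rock1 RNA was called higher. Rock2 made up 53.99 ± 3.23% in control and 60.3 ± 2.94% in knockdown of the summed CPM of the 2 kinases in RNA, and 57.96 ± 5.20% in control and 67.9 ± 5.79% in knockdown in footprints.

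Limk2 and Limk1 are the LIM kinases that switch cofilin off. Limk2 (chr11:3343297-3409276) RNA stood at 345, 374 and 380.4 CPM in the control libraries and 235, 263 and 241 CPM in the knockdown libraries. The knockdown libraries were all lower, with a log2 fold change of -0.57 ± 0.11 (edgeR's adjusted p = 0.000713). Its footprints were lower in every knockdown library too, at 142, 132 and 164 CPM in control and 123, 120.3 and 111 CPM in knockdown, without passing the test (-0.28 ± 0.15, edgeR's adjusted p = 0.215). Limk1 was not called in either assay, with RNA at 37.1 ± 4.28 CPM in control and 41.5 ± 2.79 CPM in knockdown.

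The Arp2/3 complex has 7 subunits, here encoded by 8 genes because Arpc1a and Arpc1b are alternative versions of 1 subunit. In RNA, 2 of the 8 fell, Arpc3 and Actr3, and the other 6 were not called. Arpc3 (chr5:122391878-122406181), a peripheral subunit, had RNA at 217, 246 and 173 CPM in the control libraries and 150.3, 143 and 154 CPM in the knockdown libraries. The groups did not overlap (log2 fold change -0.51 ± 0.13, edgeR's adjusted p = 0.0042). Actr3 (chr1:125392905-125435727), which encodes the actin-related protein Arp3, had RNA at 407, 374 and 377 CPM in the control libraries and 319.6, 286 and 298 CPM in the knockdown libraries, again without overlap (-0.36 ± 0.11, edgeR's adjusted p = 0.0175). The Actr3 call was lost without control 1 (0.0624), knockdown 2 (0.075) or knockdown 3 (0.0781) and with a replicate block (0.0626). In Arpc4, a core subunit, RNA was at 166, 186 and 139 CPM in control and 148, 119.9 and 128 CPM in knockdown, and footprints at 302 ± 45.4 CPM in control and 311 ± 21.6 CPM in knockdown. Arpc5, which varies between forms of the complex, had RNA at 100.1, 81.8 and 73.4 CPM in control and 77.7, 71.6 and 75.5 CPM in knockdown and footprints at 261 ± 19.9 CPM in control and 279.8 ± 35 CPM in knockdown. Neither was called. The version Arpc1b made up 69.9 ± 4.38% in control and 64.4 ± 2.19% in knockdown of summed Arpc1 RNA, apart in the 2 groups (exact two-sided permutation p = 0.1). Arpc2 RNA was lower in every knockdown library as well, at 545, 562 and 541 CPM in control and 477, 475 and 498 CPM in knockdown, without a call.

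In footprints 1 of the 8 genes was called. Actr2 (chr11:20062304-20112951), which encodes Arp2, the partner of Arp3 at the branch point, rose, and no subunit was called lower. Actr2 footprints were at 539, 466 and 569 CPM in the control libraries and 735, 602 and 699.9 CPM in the knockdown libraries. The lowest knockdown library lay above the highest control library, and the log2 fold change was 0.38 ± 0.13 (edgeR's adjusted p = 0.0381). The call was lost without control 1 (0.0809), control 2 (0.157), knockdown 1 (0.177) or knockdown 3 (0.189), with upper-quartile factors (0.0517) and in DESeq2 (0.0527). Actr2 RNA overlapped, at 195 ± 23.3 CPM in control and 212 ± 16.5 CPM in knockdown. Arpc3 footprints were lower in every knockdown library, at 314, 317 and 341 CPM in control and 294, 285 and 237 CPM in knockdown. So were those of Arpc1b, at 254, 289 and 264 CPM in control and 239, 239 and 232 CPM in knockdown. Neither was called (edgeR's adjusted p = 0.221 and 0.378), and the remaining subunits overlapped in footprints.

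Summed over the 8 genes, Arp2/3 RNA was 2094 ± 109 CPM in control and 1813 ± 51.8 CPM in knockdown, a ratio of 0.866. The groups did not overlap (exact two-sided permutation p = 0.1, the smallest possible). Summed footprints were 2568 ± 137 CPM in control and 2596 ± 104 CPM in knockdown, a ratio of 1.01, and these overlapped. The sums are not corrected for gene length, so genes with longer coding sequences weigh more. Over the 22 sums compared here the smallest adjusted p was 0.183, so none passed.

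Of the activators, Wasf2 (WAVE2), which carries the signal of Rac1, rose in RNA and Wasl (N-WASP), which carries that of Cdc42, was not called. Wasf2 RNA was at 30.4, 20.8 and 35.6 CPM in the control libraries and 45.3, 39.98 and 33.1 CPM in the knockdown libraries, so that knockdown 3 lay below control 3. The log2 fold change was 0.45 ± 0.17 (edgeR's adjusted p = 0.0445). That call was lost without control 1 (0.0996), control 2 (0.187), knockdown 1 (0.174) or knockdown 2 (0.0896), with a replicate block (0.0504) and with each library's trend with gene span removed (0.119). The change of Wasf2 without control 2 was 0.25 on the log2 scale. Wasl RNA was at 59.98, 41 and 62 CPM in control and 56.6, 66.9 and 60.9 CPM in knockdown. Wasf2 footprints were at 103 ± 17.9 CPM in control and 104 ± 10.3 CPM in knockdown and Wasl footprints at 78.5 ± 13.9 CPM in control and 63.3 ± 13.1 CPM in knockdown, both overlapping.

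Both formins rose in RNA. Diap1 (chr18:37843601-37935622), the formin that RhoA opens directly, had RNA at 59.9, 60.3 and 72.2 CPM in the control libraries and 88.1, 89.3 and 85.7 CPM in the knockdown libraries. Diap1 footprints were at 106, 112 and 126 CPM in the control libraries and 154, 177 and 167 CPM in the knockdown libraries. The groups were apart in both assays, by 0.45 ± 0.11 in RNA and 0.54 ± 0.14 in footprints on the log2 scale (edgeR's adjusted p = 0.00342 and 0.00758). The footprint call was lost without control 1 (0.0554) or knockdown 3 (0.0534). Diap3 (chr14:86655357-87141247), its relative, had RNA at 53.1, 46.6 and 45.2 CPM in the control libraries and 67.1, 72.3 and 67.2 CPM in the knockdown libraries, with no overlap and a log2 fold change of 0.51 ± 0.11 (edgeR's adjusted p = 0.00159). Diap3 has the longest genomic span of the 40 genes, 485891 bases, and its change was 0.24 with an adjusted p of 0.109 once each library's trend with span was removed. Diap3 footprints overlapped, at 72.4 ± 9.55 CPM in control and 86.5 ± 12.5 CPM in knockdown. The summed RNA of both formins was 112 ± 5.26 CPM in control and 157 ± 4.52 CPM in knockdown, and their summed footprints were 187 ± 6.60 CPM in control and 252 ± 1.35 CPM in knockdown, with ratios of 1.39 and 1.35.

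Fscn1 (fascin, chr5:142960355-142973189), which packs filaments into the tight bundles of filopodia, rose in both assays. Its footprints were at 734, 1000.2 and 576 CPM in the control libraries and 1128, 1227 and 1092 CPM in the knockdown libraries, with control 2 closest to the knockdown range. Its RNA was at 294, 342 and 230.1 CPM in the control libraries and 418, 335 and 370.1 CPM in the knockdown libraries, with knockdown 2 below control 2. The log2 fold changes were 0.37 ± 0.14 in RNA and 0.56 ± 0.15 in footprints (edgeR's adjusted p = 0.0418 and 0.00729). The RNA call was lost without control 1 (0.133), control 3 (0.125), knockdown 1 (0.208) or knockdown 3 (0.105), with a replicate block (0.0762) and in 1 fit over all 12 libraries (0.0625). The RNA change was 0.23 without control 3. The footprint call was lost without control 1 (0.0551) and without the shallowest library of each group (0.0716), where the change was 0.36.

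The other proteins of the leading edge passed no test in either assay. Cttn (cortactin, which steadies Arp2/3 branches) had footprints at 251 ± 28.3 CPM in control and 252 ± 16.8 CPM in knockdown. Enah (Mena) and Vasp, which keep filament ends growing, had RNA at 107 ± 17.1 CPM in control and 107 ± 2.41 CPM in knockdown and at 134 ± 11.97 CPM in control and 131 ± 7.05 CPM in knockdown. Enah footprints were lower in every knockdown library, at 108, 99.8 and 107 CPM in control and 97.2, 92.3 and 79.8 CPM in knockdown, with an adjusted p in edgeR of 0.404.

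Cofilin gave the widest gap between the assays, though the gap itself was not called. Cfl1 (chr19:5490455-5494031) encodes the protein that cuts and recycles old filaments. Cfl1 footprints were at 1763, 1898 and 1515 CPM in the control libraries and 2738, 2615 and 2462 CPM in the knockdown libraries. All knockdown libraries were above all control libraries, and the log2 fold change was 0.59 ± 0.13 (edgeR's adjusted p = 0.000955). Cfl1 RNA was at 1011, 1218 and 833 CPM in the control libraries and 1103, 898 and 1064 CPM in the knockdown libraries, with the groups interleaved and a change of 0.00 ± 0.15. Cfl1, like several genes here, has near-identical copies elsewhere in the genome, and reads that aligned to several places were left out of the RNA counts.

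Capg (chr6:72538282-72562983), a gelsolin relative that caps filament ends, was the member with the steepest fall. Its RNA was at 1163, 1133 and 871 CPM in the control libraries and 539.8, 548 and 561 CPM in the knockdown libraries. Its footprints were at 1025, 975 and 1181 CPM in the control libraries and 531, 638 and 490.1 CPM in the knockdown libraries. No knockdown library reached the control range in either assay. The log2 fold changes were -0.94 ± 0.13 and -0.94 ± 0.13 (edgeR's adjusted p = 4.41e-05 and 1.48e-06), and both calls were kept under every alternative tried.

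Both member genes for heavy chains of myosin II, the motor that pulls actin filaments past each other, rose. Myh9 (chr15:77760585-77842175), which encodes the chain of myosin IIA, had RNA at 552, 374 and 528 CPM in the control libraries and 738, 721 and 698 CPM in the knockdown libraries. Myh9 footprints were at 1612, 1431 and 1765 CPM in the control libraries and 2418, 2587 and 2651 CPM in the knockdown libraries. The log2 fold changes were 0.57 ± 0.14 and 0.67 ± 0.13 (edgeR's adjusted p = 0.00394 and 0.000189). Every knockdown library was above every control library in both assays.

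Myh10 (chr11:68691915-68816626), which encodes the chain of myosin IIB, had RNA at 66.5, 47.3 and 70.6 CPM in the control libraries and 105, 96.8 and 94.3 CPM in the knockdown libraries. Myh10 footprints were at 102, 94.4 and 110.0 CPM in the control libraries and 191, 179 and 190.3 CPM in the knockdown libraries, well apart. The log2 fold changes were 0.69 ± 0.13 and 0.89 ± 0.14 (edgeR's adjusted p = 0.000655 and 1.43e-05), and these calls, like those of Myh9, were kept under every alternative tried. Summed over both chains, RNA was 546 ± 108 CPM in control and 818 ± 25.7 CPM in knockdown and footprints were 1705 ± 175 CPM in control and 2739 ± 118 CPM in knockdown, ratios of 1.5 and 1.61. The light chain Myl12a was not called. Its RNA was at 332 ± 63.95 CPM in control and 275 ± 11.5 CPM in knockdown and its footprints were lower in every knockdown library, at 235, 236 and 302 CPM in control and 213, 205 and 225 CPM in knockdown, without a call (edgeR's adjusted p = 0.253). Myl12a has a near-identical neighbour gene, so its counts are uncertain.

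Tropomyosins wind along filaments and decide which proteins reach them. Tpm1 (chr9:67022590-67049672) rose in footprints, at 239.7, 279 and 229 CPM in the control libraries and 369, 357 and 318 CPM in the knockdown libraries. The groups were apart by 0.47 ± 0.13 on the log2 scale (edgeR's adjusted p = 0.0107), and the call was lost without control 1 (0.0651) or knockdown 1 (0.0802). Tpm1 RNA overlapped, at 232 ± 43.4 CPM in control and 275 ± 16.2 CPM in knockdown. Tpm2 footprints also lay apart, at 98.3, 113 and 119.9 CPM in control and 155, 134 and 131 CPM in knockdown, but with an adjusted p in edgeR of 0.0826 they were not called. Tpm3, Tpm4 and Cald1 (caldesmon, which binds tropomyosin filaments and slows myosin) overlapped in both assays. Tpm3 footprints were at 341, 379 and 356 CPM in control and 418, 475 and 352 CPM in knockdown. Those of Tpm4 were at 502, 568 and 415 CPM in control and 571, 604 and 522 CPM in knockdown. Cald1 had footprints at 289.8, 234 and 275 CPM in control and 281, 291 and 255 CPM in knockdown and RNA at 183 ± 30.2 CPM in control and 168 ± 12.04 CPM in knockdown. As a share of the 4 tropomyosins, Tpm1 footprints were 20.5 ± 0.279% in control and 23.7 ± 0.867% in knockdown, with no overlap (exact two-sided permutation p = 0.1). Summed footprints of the 4 tropomyosins were 1213 ± 113 CPM in control and 1469 ± 129 CPM in knockdown and overlapped.

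**Figure D2:**
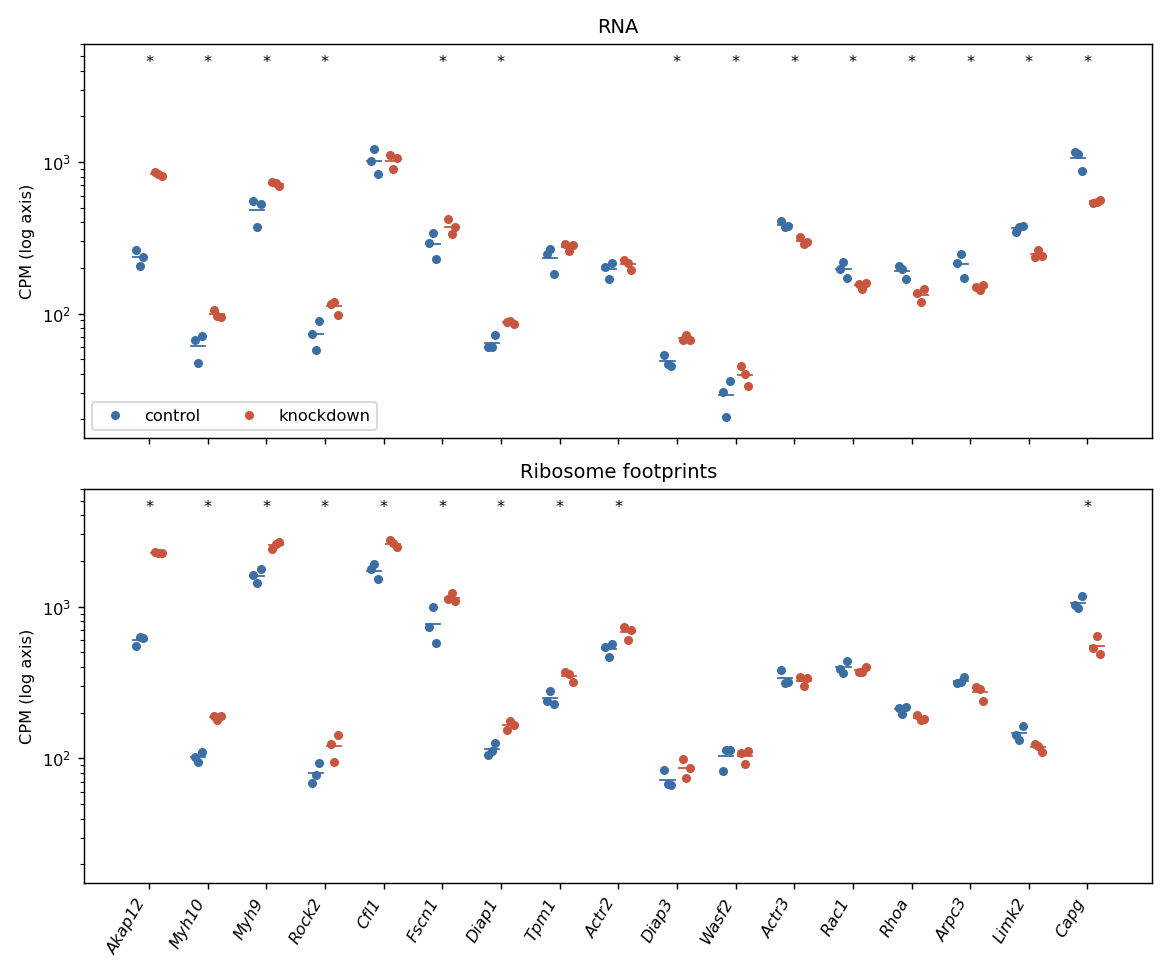
CPM on a log axis in each library for the 17 members called in at least 1 assay, RNA above and footprints below; points are libraries, short lines are group means and a star marks a call in that assay. Akap12 is the member with the widest gap upward, Capg with the widest gap downward, and Cfl1 has separate groups in footprints but not in RNA.

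The promoters of the contractile genes were searched for motifs because Myh10, Tpm1 and Myh9 all rose in footprints. RefSeq promoter windows of GRCm38.p6, from 250 bases before to 50 bases after a gene's start, were at hand for 35 of the 40 members, in 42 windows. The CArG box, the site known for serum response factor, was in 2 of the 42 windows (4.76%), those of Myl9 and Arpc4, against 1.63% of all 32851 windows. The letters GGAATG, a site known for TEAD factors, were in 5 of the 42 on either strand (11.9%), against 14.7% of all windows. Their members were Arpc2, Cald1, Myh10, Myl12a and Tpm1, and Myh9 was not among them. Shown here are 30 bases around the match in the 2 contractile genes that rose and in Myl9, 5' to 3' on the gene's strand, with the match in capitals. The Myh10 window is chr11:68691896-68691925 on the plus strand, with the motif on the opposite strand; that of Tpm1 is chr9:67049252-67049281 on the minus strand, before a start that lies inside the gene span given above; that of Myl9 is chr2:156775293-156775322 on the plus strand.
Myh10: gccaatgagcatCATTCCaggtgggtggag
Tpm1: tggctgtcctaaGGAATGcggtcgcccccc
Myl9: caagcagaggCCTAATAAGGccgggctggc
A match is a description of these letters and not a site shown to be bound.

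The ERM proteins ezrin (Ezr), moesin (Msn) and radixin (Rdx) tie the actin cortex to the cell membrane, and none was called. Msn footprints were lower in every knockdown library, at 513, 471 and 436 CPM in control and 427, 365 and 425 CPM in knockdown, with a log2 fold change of -0.22 ± 0.13 (edgeR's adjusted p = 0.279). Ezr footprints were at 455, 489.7 and 467 CPM in control and 389.7, 457 and 405 CPM in knockdown and those of Rdx at 122, 117 and 109 CPM in control and 111, 118 and 109 CPM in knockdown. Ezr RNA was lower in every knockdown library, at 248, 221 and 216 CPM in control and 202, 209 and 209.6 CPM in knockdown, without a call (edgeR's adjusted p = 0.296). In RNA the other 2 genes overlapped, with Msn at 123 ± 31.96 CPM in control and 123 ± 4.90 CPM in knockdown and Rdx at 57.7 ± 5.31 CPM in control and 55.4 ± 3.76 CPM in knockdown. Summed over the 3 genes, footprints were 1059.7 ± 42.3 CPM in control and 936 ± 6.69 CPM in knockdown, a ratio of 0.883, and did not overlap (exact two-sided permutation p = 0.1, the smallest possible). Summed ERM RNA overlapped, at a ratio of 0.942.

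Akap12 (chr10:4266329-4359471), a scaffold that holds protein kinases A and C near the membrane, was the member with the steepest rise. Akap12 RNA was at 261, 206 and 237 CPM in the control libraries and 861, 832 and 805 CPM in the knockdown libraries. Its footprints were at 555, 634 and 622 CPM in the control libraries and 2289, 2266 and 2247 CPM in the knockdown libraries. The groups were far apart, with log2 fold changes of 1.83 ± 0.13 and 1.91 ± 0.13 (edgeR's adjusted p = 3.65e-08 and 1.31e-13). It was the one member past 1 on the log2 scale in either assay.

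All 40 members were also summed. Their summed footprints were 13407 ± 128 CPM in control and 17054 ± 286 CPM in knockdown, a ratio of 1.27, with no overlap (exact two-sided permutation p = 0.1, the smallest possible). Their summed RNA was 8981 ± 668 CPM in control and 9001 ± 319 CPM in knockdown, a ratio of 1.00, with overlap. Without Myh9, Cfl1, Akap12 and Capg, a choice made after the values were seen, the footprint ratio was 1.08. The share of all gene counts that fell on members was 1.36 ± 0.01% in control and 1.66 ± 0.017% in knockdown footprints.

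**Figure D3:**
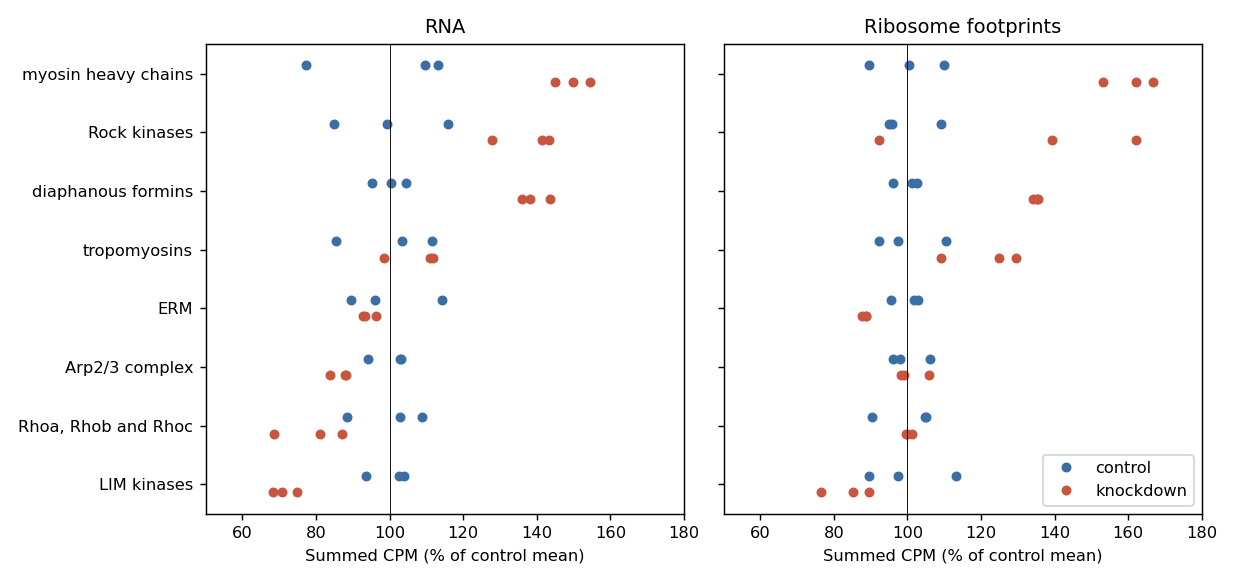
Summed CPM of each family or complex in every library as a percentage of the control mean (x axis), RNA on the left and footprints on the right; each point is 1 library. The myosin heavy chains, Rock kinases and formins lie to the right of their controls in RNA, the LIM kinases and the Arp2/3 complex to the left, and in footprints the Arp2/3 points mix with their controls.

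Translational efficiency, the change of footprints beyond that of RNA, was fitted over all 12 libraries at once, as an interaction term of assay with knockdown. No member was called in either direction by edgeR, and 0 by DESeq2 or limma-voom. Of all genes edgeR called 0.203%, 0.129% upward and 0.0739% downward. DESeq2 called 60 upward and 38 downward of 10820 genes, and limma-voom 68 upward and 18 downward of 10821. The smallest adjusted p in edgeR was 0.192, for Cfl1, with a change of 0.61 ± 0.20 on the log2 scale. At an unadjusted p under 0.05 there were 3 members (7.69% against 12% of all genes), all upward: Cfl1, Rhoa (0.37 ± 0.18) and Cdc42 (0.36 ± 0.17). The change was above 0 in 30 of 39 members, with a median of 0.10 beside 0.017 over all genes tested. The share of all genes above 0 was not computed. The median over all genes depended on the processing, at -0.090 with no filter on low counts and 0.064 with the span trend removed. The signs of members were not counted under those settings, so the 30 of 39 is a description only. When an RNA library and a footprint library that share group and number were joined in a replicate block, Cfl1 was called (0.60, edgeR's adjusted p = 0.00718), and so were 3.26% of all genes, 2.27% upward. The labels do not tie these libraries, but the deviations of same-numbered RNA and footprint libraries correlated at 0.152, 0.232 and 0.127 in control and 0.170, 0.133 and 0.0039 in knockdown. In that respect 5 of the 6 RNA libraries were closest to the footprint library of their own number, which the fit without the block leaves out of account. For Rhoa, Rac1, Arpc3, Actr3 and Limk2, which fell in RNA alone, the interaction was not past the threshold, so their RNA and footprint changes were not shown to differ.

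Msi2 CLIP peaks were in the 3' UTRs of 21 of the 40 members (52.5%). Of all genes tested in RNA 10.3% were listed, and of those with an average log2 CPM of 5 or more 17%. The 21 are Rac1, Cdc42, Arpc4, Arpc5, Actr2, Actr3, Wasl, Cfl1, Ezr, Msn, Rdx, Myh9, Cald1, Tpm3, Tpm4, Fscn1, Enah, Vasp, Rock1, Rock2 and Akap12. They held 80 of the 2671 listed peaks (3.00%), in a list of 1199 genes. The peaks were listed by the authors over all 5 libraries, each with a height. Nothing here compares control with knockdown cells or with a CLIP of another protein. The part of RNA level in this share was not tested beyond the 17% above.

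Listed peaks and subpeaks were gathered in a few genes. Cald1 held 15, Msn 14, Actr2 12, Rdx 7, Myh9 6 and Tpm4 5, while 10 members held 1 each. Of the members with a peak 28.6% had 5 or more, against 10.8% of all listed genes. Both ERM genes in that group, and Actr2, had peaks spread along the end of the gene. The list names some entries subpeaks, often a few bases apart. All entries of Msn and Actr2 and most of Cald1 were subpeaks, while Cfl1 and Ezr had none. Counts of peaks thus depend on whether a covered region was listed whole or in parts. In members the height of a whole peak equalled its overlapping reads, and that of a subpeak was lower. Heights of whole peaks and of subpeaks are thus not the same measure. The peaks of Msn reached from chrX:96166567 to 96168561 on the plus strand. Their tallest (height 62, with 140 overlapping reads) had its summit 203 bases before the annotated 3' end. Those of Actr2 lay within chr11:20062588-20064770 on the minus strand, with the tallest (height 41, with 104 overlapping reads) 2170 bases before the end. In Cald1 they lay within chr6:34773307-34775471 on the plus strand. Cfl1 differed in shape, with 1 whole peak of 652 bases and height 178 at chr19:5493383-5494034 on the plus strand, the highest listed height of any member. Its 178 overlapping reads compare with the 140 of the tallest Msn subpeak. The tallest peak of Myh9 (height 84) was at chr15:77760587-77760781 on the minus strand, that of Ezr (77) at chr17:6738647-6739191 on the minus strand and that of Rdx reached a height of 61. Rac1 held 3 peaks, with heights of up to 36, within chr5:143505495-143506092 on the minus strand. The single peaks of Arpc4, Arpc5, Actr3, Tpm3, Fscn1, Vasp, Rock1, Rock2 and Akap12 were lower, with heights of 10 to 19.

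**Figure D4:**
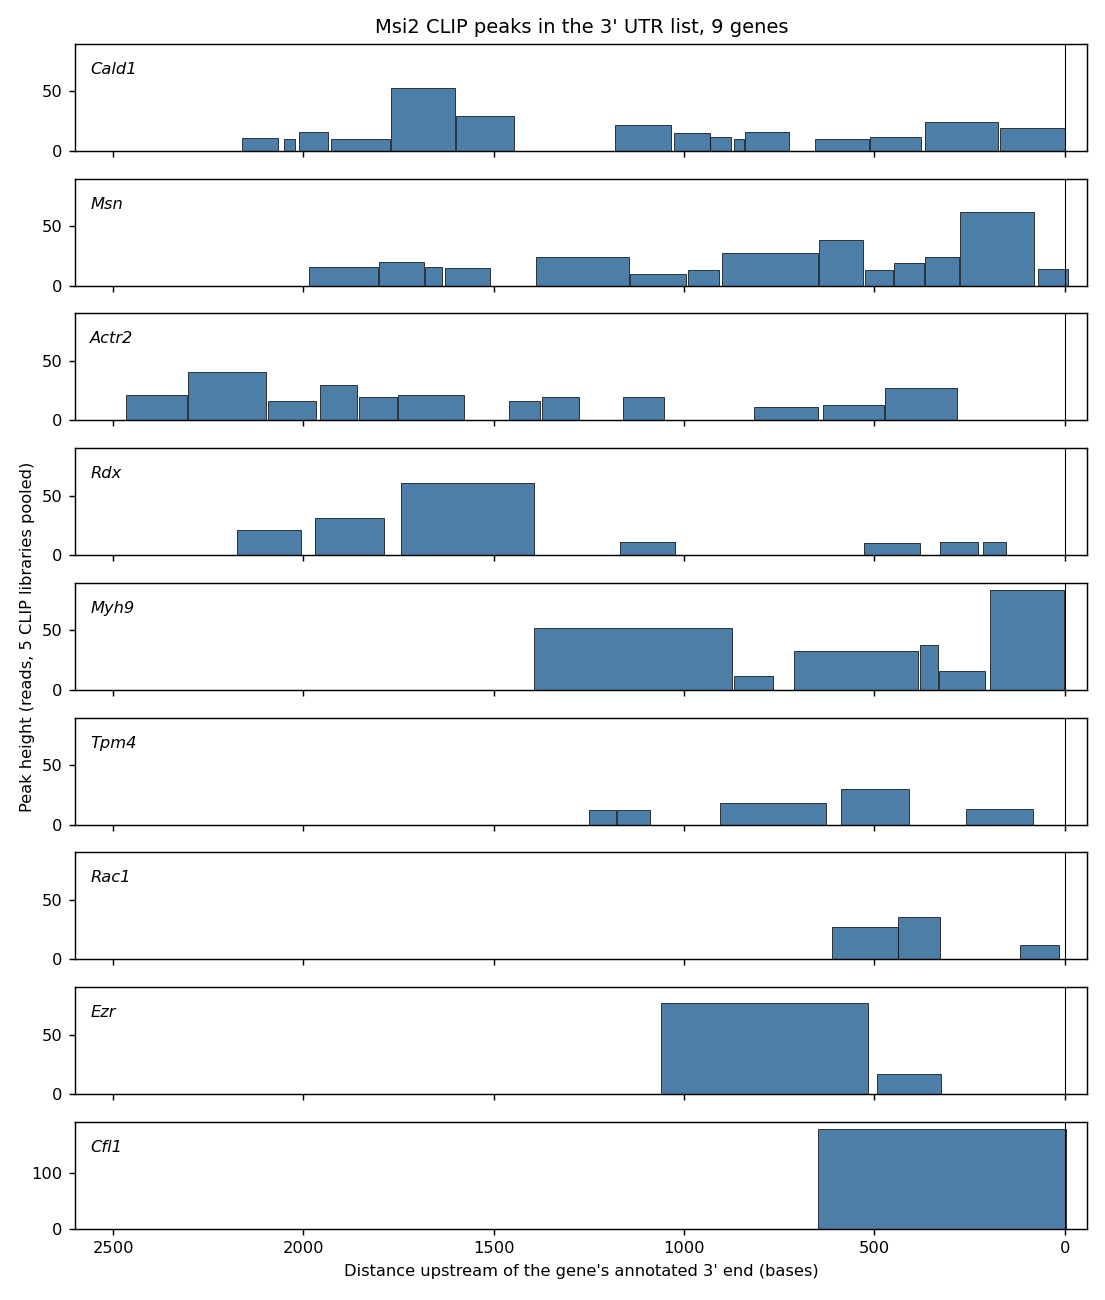
Msi2 peaks in 9 members, with the distance before the annotated 3' end of the gene on the x axis (bases) and the listed peak height over the 5 CLIP libraries on the y axis (Cfl1 on its own scale). Cald1, Msn and Actr2 carry rows of peaks over about the same distance, most of them subpeaks, while Cfl1 carries 1 tall whole peak that ends at the end of the gene. The height of a whole peak counts all its overlapping reads and that of a subpeak does not, so the heights are not 1 measure.

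The members' share of a library's 3' UTR peak reads was lowest in library 1, the shallowest, with an interval that overlapped those of libraries 2, 4 and 5 but not that of library 3. It was 2.51% (1.90 to 3.30%) of 1954 reads in library 1, 3.38% (3.13 to 3.66%) of 17760 in library 2, 3.61% (3.38 to 3.85%) of 24566 in library 3, 3.29% (3.08 to 3.51%) of 26026 in library 4 and 3.23% (3.02 to 3.46%) of 24518 in library 5 (95% Wilson intervals, which cover counting error only). Reads were counted for each peak they overlap and summed over peaks, so a read may count in several adjoining peaks. The intervals take every count as a separate read and may be too narrow. Shares of genes with rows of peaks, such as Actr2, Msn and Cald1, may be raised by it. In library 1, 9 members had no read, which allows a share of up to 0.154%. Actr2 differed between the 2 libraries of the same dilution. It took 0.282% (0.214 to 0.371%) in library 2 (low molecular weight) and 0.790% (0.686 to 0.908%) in library 3 (high molecular weight), and libraries 4 and 5 gave 0.592% (0.506 to 0.692%) and 0.657% (0.563 to 0.766%). Cfl1 went the same way, with 0.0788% (0.0470 to 0.132%) in library 2 and 0.228% (0.176 to 0.296%) in library 3. The intervals of libraries 2 and 3 did not overlap for either gene. For Rac1 they overlapped, at 0.265% (0.199 to 0.352%) and 0.199% (0.151 to 0.264%). With 1 library of each kind, size class and library cannot be told apart.

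**Figure D5:**
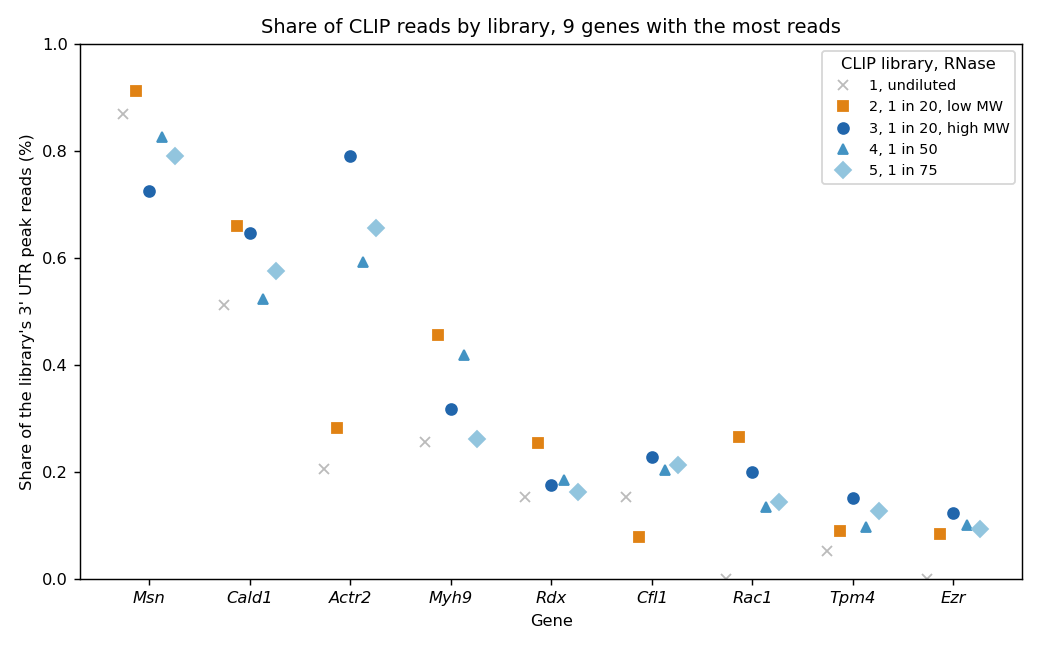
Share of each CLIP library's 3' UTR peak reads (%, y axis) taken by the 9 members with the most reads (x axis); symbols mark the 5 libraries by RNase dilution. Msn lies highest in every library but library 3, where Actr2 does, and Actr2 and Cfl1 have a lower share in library 2 (low molecular weight) than in libraries 3 to 5.

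Members with and without a peak were set beside the calls. Of the 9 members that rose in footprints 6 had a peak (Actr2, Cfl1, Myh9, Fscn1, Rock2 and Akap12), and Capg, which fell, had none. Of the members with a peak 28.6% thus rose in footprints and 0% fell, against 16.6% and 8.59% of all tested genes with a peak. Among the 18 tested members without a peak 3 rose and 1 fell. Fscn1, Rock2 and Akap12 each had a single peak, of height 18, 19 and 12, and the footprint calls of Actr2, Fscn1 and Rock2 were lost under some alternatives. Of the 29 not called 15 had a peak. The median footprint change was 0.11 for the 21 members with a peak and 0.03 for the 18 tested without one, beside 0.07 for all 1129 tested genes with a peak. In RNA the peak was in 4 of the 8 that rose, in 2 of the 6 that fell and in 15 of the 25 not called. Of the members with a peak 19.0% rose in RNA and 9.52% fell, against 30.1% and 18.2% of all tested genes with a peak. Of the 6 members with 5 or more peaks, Cald1, Msn, Rdx and Tpm4 passed no test, and 22 of the 39 members tested passed none. Actr2 rose in footprints and Myh9 in both assays, where 8.76% of all genes tested rose in footprints. These 6 genes are too few to set against such shares.

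Genes of the same machinery outside the 40 were read from 6 lists, beside the 43.8% of all genes called in RNA and 16.1% in footprints. Among 30 tested GTPases of this kind and their regulators, 6 rose and 2 fell in RNA, and 4 and 2 of 29 in footprints. Iqgap1, a scaffold that binds Rac1 and Cdc42, was at 103 ± 32.3 CPM in control and 235 ± 42.2 CPM in knockdown in RNA and 411 ± 117 CPM in control and 1016 ± 172 CPM in knockdown in footprints, and rose in both (1.20 ± 0.19 and 1.32 ± 0.16, edgeR's adjusted p = 0.000383 and 7.97e-07).

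The partners of Arp2/3 were split. Of 16 tested, 3 rose and 5 fell in RNA, and none of 14 was called in footprints. Arpc5l, the alternative version of subunit Arpc5, fell in RNA with Arpc3 and Actr3, from 83.6 ± 17.2 to 46.2 ± 3.76 CPM (-0.86 ± 0.14, edgeR's adjusted p = 0.000122). Cyfip2, a WAVE complex subunit, rose from 2.55 ± 0.644 to 8.69 ± 1.55 CPM (1.74 ± 0.25, edgeR's adjusted p = 4.41e-05). Coro1b, which removes Arp2/3 from branches, fell in RNA (-0.58 ± 0.11, edgeR's adjusted p = 0.000483). Its footprints were at 435 ± 27 CPM in control and 504 ± 22.9 CPM in knockdown, and it was the one gene of the 6 lists called in translational efficiency (0.81 ± 0.17, edgeR's adjusted p = 0.0336). That call was lost when any library but RNA control 3 and footprint knockdown 2 was left out, and with a replicate block (0.123), with an adjusted p of up to 0.153.

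Of 21 monomer, capping and severing proteins 6 rose and 2 fell in RNA, and 7 rose and 2 fell in footprints. The thymosins, which store actin monomers, rose in both: Tmsb4x footprints were at 1159 ± 171 CPM in control and 2620.4 ± 571 CPM in knockdown and Tmsb10 footprints at 1978 ± 603 CPM in control and 3979.5 ± 379 CPM in knockdown. The log2 fold changes of Tmsb4x were 0.95 ± 0.19 in RNA and 1.19 ± 0.14 in footprints (edgeR's adjusted p = 0.00108 and 1.57e-07). Those of Tmsb10 were 0.67 ± 0.19 and 1.02 ± 0.16 (0.0104 and 5.03e-05), and its RNA call was lost without control 1 (0.0511). Pfn1 (profilin, which feeds monomers to formins) rose in footprints, from 1305 ± 103 to 1726 ± 59.9 CPM (0.40 ± 0.13, edgeR's adjusted p = 0.0225), and its RNA was at 791 ± 171 CPM in control and 763 ± 35.7 CPM in knockdown. The Pfn1 call was lost without control 1 (0.12), knockdown 1 (0.0884) or knockdown 3 (0.124). Tesk1, a kinase that acts on cofilin like the LIM kinases, rose in RNA (0.74 ± 0.12, edgeR's adjusted p = 9.19e-05).

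Of 19 genes of myosins and contraction 8 rose and 6 fell in RNA, and 5 rose and 3 fell in footprints. Myh14, the chain of myosin IIC, fell from 68.2 ± 1.71 to 39.7 ± 2.73 CPM in RNA (-0.78 ± 0.11, edgeR's adjusted p = 4.75e-05). Myo1c, a membrane motor, fell in both assays (-0.76 ± 0.11 and -1.20 ± 0.15), and Svil, which links myosin II to the membrane, rose in both (0.79 ± 0.14 and 1.15 ± 0.16).

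Of 13 formins and other elongation factors tested outside the members 7 rose and 0 fell in RNA, with a median of 0.45 beside 0.004 over all genes, and 2 of 12 rose and 0 fell in footprints. The 7 were the formins Fmnl1, Fmnl2, Fmnl3, Fhod1 and Fmn1 with Spire2 and Raph1. Fmnl3 RNA was at 11.8 ± 1.49 CPM in control and 25.2 ± 5.32 CPM in knockdown and Fhod1 RNA at 17.7 ± 3.41 CPM in control and 37.05 ± 4.36 CPM in knockdown (edgeR's adjusted p = 8.98e-05 and 4.41e-05). The 2 that rose in footprints were Fmnl3 and Pfn1, which is also counted among the monomer proteins above. The footprint call of Fmnl3 was lost in DESeq2 (adjusted p = 0.0641) and, in edgeR, without control 1 (0.0788). Of 22 bundlers, cross-linkers and serum response targets 9 rose and 1 fell in RNA, and of 21 in footprints 7 rose and 0 fell. Flna (filamin A), which joins filaments into nets, rose in both assays. Its footprints went from 1304 ± 249 to 3707 ± 302 CPM (1.51 ± 0.14, edgeR's adjusted p = 7.56e-11), and its RNA change was 1.44 ± 0.15 (edgeR's adjusted p = 1.86e-06).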

How the data were processed

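The authors deposited, for RNA and for footprints, counts of coding-sequence reads per gene; the submitters' processing notes name TopHat, HTSeq, DESeq, cutadapt and Novoalign and the build mm10, without versions. The deposited peak lists give, per region, a signal (peak height over the 5 CLIP libraries) and each library's read counts; the peak caller is not given in the sources used here. RNA reads assigned to no gene (32.3 to 35.2%) and reads aligned to several places stayed out of library sizes and tests.

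Counts were fitted in R 4.3.3 with edgeR 4.0.16 over all genes (filterByExpr, minimum count 10, minimum total 15; TMM; robust quasi-likelihood F test; Benjamini-Hochberg over 11117 genes in RNA, 8969 in footprints and 10821 in translational efficiency; threshold 0.05), by group, with RNA and footprints apart. Single shares and sums were compared with an exact permutation test over libraries. Scripts were tested on simulated data. Positions and promoters came from RefSeq GRCm38.p6, which matched 20446 symbols. CPM are scaled over the genes tested. No protein lengths were used, so families and complexes are sums of CPM without length, unlike the plan, and levels of different genes are not compared.

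The members and gene lists were chosen with earlier results of these data known. Named genes are members with a call or a 3' UTR peak, other members where a family is described, Msi2, and the 2 genes of each list with the smallest p in each assay, of which some are not reported here. Marker lists of endothelial, immune and melanocyte cells (4 genes each) summed to at most 5.09, 18.6 and 2.96 CPM of RNA in any library. Alternatives were DESeq2 1.42.0 and its size factors, upper-quartile factors, limma-voom 3.58.1, no filter, 10 CPM in 3 libraries, a replicate block, span trend removal, 1 fit over 12 libraries, each library left out, the shallowest footprint libraries left out, and other peak sets.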

Additional observations from a re-analysis of the deposited data

Results flagged for a closer look

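Shares of CLIP reads of 21 members were looked at for a library far from the other 4, a rule that flags about 1 in 20 groups by chance. Wasl took 0.102% of the reads of library 1 against 0.0231 to 0.0394% in the others, and Akap12 took 0.0512% against 0.00563 to 0.0163%. Both rest on few reads in that library of 1954, 2 for Wasl and 1 for Akap12.

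The list of all peaks holds 11 regions inside 5 members that are not in the 3' UTR list, with no control CLIP to set them against. Actr2 had 4, with 13, 13, 24 and 16 reads, and the last of these (chr11:20064772-20064853) lies beside its row of 3' UTR peaks. Msn had 2, with 29 and 11 reads. Myh9 had 3, with 14, 13 and 14 reads. Cald1 had 1 with 16 reads, and Rock1 had 1 with 19 reads.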

How the results depend on the processing

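No called gene changed direction under any alternative. Of the 14 RNA calls 9 held under every alternative, and Rac1, Actr3, Wasf2, Diap3 and Fscn1 did not; of the 10 footprint calls 5 held, and Actr2, Tpm1, Diap1, Fscn1 and Rock2 did not. In RNA 8 members gained a call under at least 1 alternative: Rhob, Tpm1 and Rock1 upward, and Arpc1b, Arpc4, Arpc5, Myl12a and Cald1 downward. In footprints 1 member did (Tpm2, upward). With 1 library left out in turn, 6 to 8 members rose and 4 to 10 fell in RNA, 5 to 10 rose and 1 to 1 fell in footprints, and 0 to 0 were called in either direction of translational efficiency. The highest of the RNA falls, 10, came without RNA control replicate 3, and the lowest of the footprint rises, 5, without footprint control replicate 1. Members with a 3' UTR peak numbered 11 at a height of 20 or more and 12 with reads in all 5 CLIP libraries. With all peaks inside the gene they were 20. The 1 member lost there was Cfl1, whose peak ends at base 5494034, just past the annotated gene end at 5494031, and so did not count as inside. The cause of the other shifts was not tested, beyond fewer libraries or peaks.

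Replicate numbers are shared by the groups. Same-numbered RNA libraries of control and knockdown had correlated deviations of 0.057, -0.276 and -0.227, and footprint libraries 0.050, 0.029 and -0.0025. These values gave no sign that the numbers pair control with knockdown, which 3 libraries in each group are too few to settle. Same-numbered RNA and footprint libraries of 1 group correlated at 0.0039 to 0.232, with 5 of the 6 pairs over 0.1. A replicate block gave 6 rises and 4 falls in RNA, 9 and 1 in footprints, and 0 in translational efficiency. A replicate block that ties each RNA library to the footprint library sharing its group and number, chosen after seeing the data, gave 1 rise in translational efficiency, Cfl1, with 246 rises and 107 falls over all genes against 14 and 8 without it.

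Per-length shares and Arp2/3 subunit densities were not run, for want of protein lengths. The shallowest footprint libraries limit members with few counts: Rhoc had 2 footprint counts in each of 2 libraries.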
